A study of Mus musculus with 11 samples.

Results

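The immediate early genes described here are Fos, Fosb, Jun, Junb, Egr1, Egr2, Atf3, Dusp1, Ier2 and Zfp36, and the 9 other than Junb were found by symbol among the 22600 genes of the merged count table. Junb was not analysed here. All 9 passed the filter on low counts, with every library of both groups above its level, and were tested among 16496 genes in all. Whole distal tibiae of C57BL6/SJL mice, labelled as 24 weeks old and fed ad libitum, were sequenced with 1 library per mouse. The groups were 4 Control mice, given the genotype BMAd-WT in the labels, and 7 BMAd-DTA mice. In BMAd-DTA mice the BM adipocyte (BMAd) Cre excises a STOP cassette at the Rosa26 locus, and the cells then make diphtheria toxin A, which kills them. That Cre sits in the endogenous Adipoq gene and is switched on by an FLPo recombinase driven by endogenous Osterix, and the study describes it as appearing to reach a small subset of marrow adipogenic precursors too. By the study's methods every mouse carried both of these driver alleles, so the Control mice share them. The labels do not state the Rosa26 genotype of the Control mice. With that Cre present, a mouse carrying the Rosa26 toxin allele would make the toxin, so the Control mice are taken to lack it. The sample was the whole bone with its marrow, snap-frozen and hammered into powder, and the interval between death and freezing is not given in the sources used here.

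Immediate early genes are switched on within minutes of a stimulus, without new protein synthesis, because the factors that read their promoters are already present and are activated by phosphorylation. ERK, p38 and JNK kinases act on SRF with its ternary complex partners, which bind CArG boxes, and on CREB and ATF factors, which bind the cyclic AMP response element (CRE). Most of the products are transcription factors, such as the AP-1 dimers of FOS and JUN proteins. Others, such as DUSP1 and ZFP36, shut the response down. In bone, AP-1 proteins are known for their part in osteoblast and osteoclast differentiation. Their transcripts decay quickly.

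Proximal promoter sequence was read for 7 members from the RefSeq promoter table (assembly GRCm38.p6). Egr1 was left out because of its chromosome and Ier2 had no entry, so neither was searched for motifs. The 4 stretches printed here belong to the genes on which the results turn: Fos and Fosb, whose levels stood apart in 1 library, Egr2, which differed most between the groups, and Dusp1, a member with a lower mean in BMAd-DTA mice. Each stretch is read 5′ to 3′ from 200 bases before the annotated start and ends where the first annotated exon begins. Capitals mark CRE core sites (TGACG or its reverse complement CGTCA), the full CRE (TGACGTCA), the CArG box, the TATA box (TATAAA) and the EGR site (GCGNGGGCG), each searched on both strands.

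Fos, chr12:85473690-85473889, plus strand: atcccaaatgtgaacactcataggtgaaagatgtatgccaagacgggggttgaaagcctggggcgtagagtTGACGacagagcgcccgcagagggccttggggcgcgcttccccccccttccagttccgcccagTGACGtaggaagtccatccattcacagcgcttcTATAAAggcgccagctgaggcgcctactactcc
Fosb, chr7:19310052-19310245, minus strand: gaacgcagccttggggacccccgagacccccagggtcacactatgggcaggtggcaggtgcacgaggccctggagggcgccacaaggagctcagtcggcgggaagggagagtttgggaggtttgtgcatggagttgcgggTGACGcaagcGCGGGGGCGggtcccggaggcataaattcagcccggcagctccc
Egr2, chr10:67537669-67537868, plus strand: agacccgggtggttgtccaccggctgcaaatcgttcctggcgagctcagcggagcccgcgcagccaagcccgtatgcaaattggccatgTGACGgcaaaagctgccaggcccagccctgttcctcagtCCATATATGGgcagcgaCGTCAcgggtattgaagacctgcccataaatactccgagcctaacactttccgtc
Dusp1, chr17:26508520-26508672, minus strand: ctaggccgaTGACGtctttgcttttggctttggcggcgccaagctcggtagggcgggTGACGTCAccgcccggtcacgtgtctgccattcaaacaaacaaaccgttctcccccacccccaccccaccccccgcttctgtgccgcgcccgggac

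In the Fos stretch the CRE core sites lie 129 to 125 and 66 to 62 bases before the start, and the TATA box 33 to 28 bases before it. Fosb has a core site 60 to 56 bases before its start, followed by an EGR site at 50 to 42. Egr2 has a CArG box 72 to 63 bases before the start, between core sites at 111 to 107 and at 55 to 51. Dusp1 is the 1 member of the 7 with a full CRE, 143 to 136 bases before the start, and has a further core site at 191 to 187. Core sites inside a full CRE were counted under both names.

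Over the 250 bases before the start, a CRE core site was found for 5 of the 7 members (Atf3, Dusp1, Egr2, Fos and Fosb) and in 17.8% of 32851 such windows of all genes. The full CRE was in 1.55% of all windows, the CArG box in 1.47% (Egr2 and Zfp36 among the members) and the TATA box in 12.4% (Fos among the members). The EGR site was in 4.70% of all windows and was held by Fosb and Zfp36. The AP-1 site, TGANTCA, was in 6.75% of all windows and in 0 of the 7 members. Egr2 has several annotated starts, and a member is counted where any of its windows holds the motif. A match is a description of the letters and no match says only that these letters are not in the window.

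Expression is given in CPM, the counts of a gene relative to all counts assigned to genes in its library, scaled with TMM factors. Library totals lay between 16969529 and 18637663 counts. The mean count of a member per library ranged from 47.7 for Fosb to 2437 for Zfp36. The labels give no sex. Every library held 13810 to 20260 Xist counts and at most 1 count of the summed Y-linked genes, the pattern of female mice, whereas the study's text describes male mice for the tibial experiments that include the sequencing. Skeletal muscle transcripts divided the libraries: the mean log2 CPM of 13 muscle markers was 3.42 to 5.62 in 7 libraries and 0.224 to 0.532 in Control 4 and BMAd-DTA 2, 3 and 5. The 13 tested muscle markers of 14 summed to 28.3 to 1369 CPM in Control and 32.3 to 1093 CPM in BMAd-DTA libraries. All 13 were lower in BMAd-DTA mice by fitted fold change, with -0.795 as their median on the log2 scale. Of these, 0 were called and 0 were at an unadjusted edgeR p under 0.05, beside 16.4% of all genes tested in either direction. Adipocyte markers, of which all 12 had a negative log2 fold change, summed to 1193 to 1991 CPM in Control and 513 to 1424 CPM in BMAd-DTA libraries. Of the 12, 1, Retn, was called by edgeR at an adjusted p under 0.05, beside 0.0788% of all genes tested.

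Between BMAd-DTA and Control mice, 0 of the 9 members were called by edgeR's quasi-likelihood test at an adjusted p under 0.05, where 13 of 16496 genes, or 0.0788%, were. DESeq2 also called 0 members, beside 5.42% of the 15583 genes it adjusted over, and limma-voom 0, beside 0.121%. At an unadjusted p under 0.05 there was 1 member of 9, Egr2, against 16.4% of all genes tested, so that the members' share was not above the background. The means of Fos, Jun, Egr1, Egr2, Atf3, Ier2 and Zfp36 were higher in BMAd-DTA mice and those of Fosb and Dusp1 lower, each by less than the test could separate from the spread after adjustment. The median log2 fold change of the 9 was 0.21, beside 0.0018 over all genes tested. In no member did the groups separate completely, against 2.81% of all genes tested. In whole bone, fewer cells of a type and less RNA per cell cannot be told apart.

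**Figure D1:**
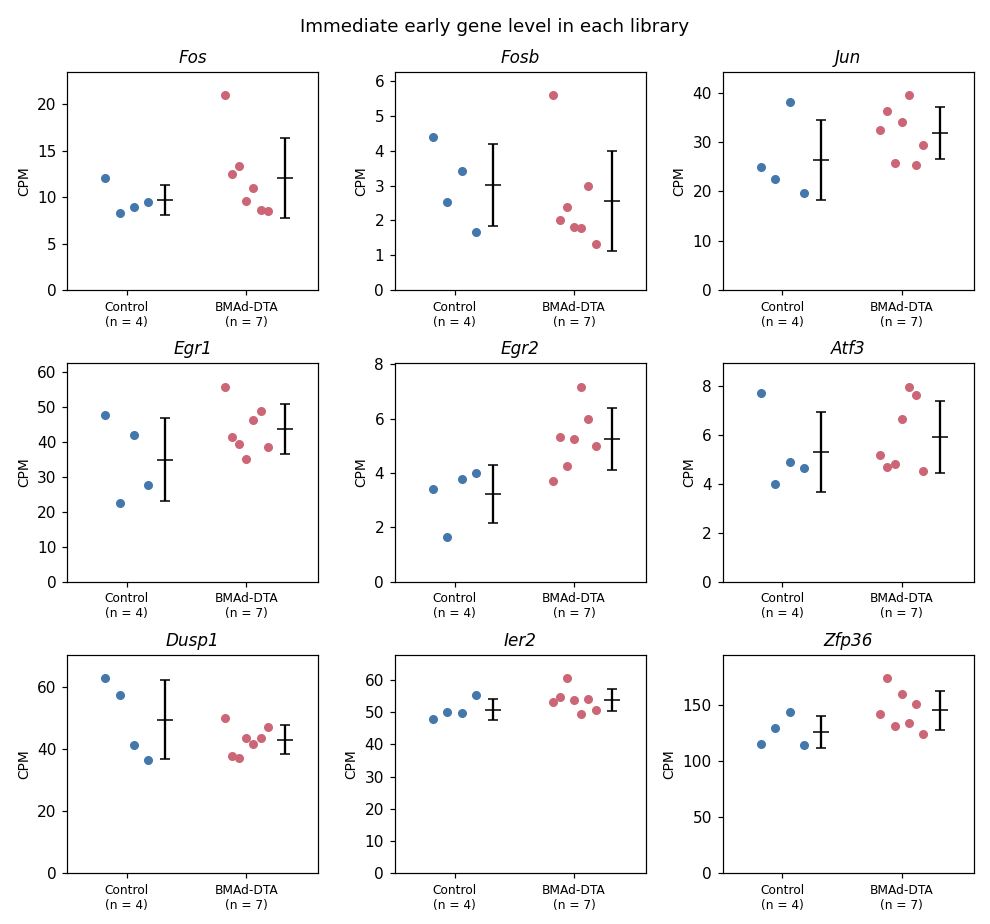
Expression of each member in CPM (vertical axes, each starting at 0) in the 4 Control and 7 BMAd-DTA libraries, shown as points in order of replicate, with the mean and SD as a horizontal dash and bar. The groups overlap in all 9 panels, and the top BMAd-DTA points of Fos (21.0 CPM) and Fosb (5.60 CPM) are the same library.

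Among the AP-1 subunits, Fos, the gene of the c-FOS protein that dimerises with JUN, lies at chr12:85473890-85477273 on the plus strand (GRCm38, GENCODE M21). Control libraries 1 to 4 held 12.0, 8.30, 8.92 and 9.44 CPM of Fos. The 7 BMAd-DTA libraries ranged from 8.53 to 21.0 CPM around a median of 11.02. The lowest libraries of both groups were close, and 3 BMAd-DTA libraries lay above every Control library. The group means were 9.67 ± 1.63 CPM (SD, n = 4) and 12.1 ± 4.34 CPM (SD, n = 7). The log2 fold change of Fos was 0.32 (SE 0.23), with an edgeR adjusted p of 0.530. It was 0.13 without BMAd-DTA 1, the library with the highest value.

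Fosb encodes FOSB, a second FOS protein with a long-lived splice form, and lies at chr7:19302696-19310051 on the minus strand. It was the least abundant member, at 4.41, 2.53, 3.43 and 1.66 CPM in Control 1 to 4. BMAd-DTA libraries ranged from 1.33 to 5.60 CPM with a median of 2.01. The Control values thus lay inside the BMAd-DTA range, whose top and bottom libraries were both beyond them. Means were 3.01 ± 1.18 CPM (SD, n = 4) in Control and 2.56 ± 1.44 CPM (SD, n = 7) in BMAd-DTA mice, and the log2 fold change of -0.24 (SE 0.37) had an edgeR adjusted p of 0.811. The size depended on single libraries: without Control 1 the log2 fold change turned to 0.0099, and without BMAd-DTA 1 it was more negative, at -0.55. With the muscle score as a covariate it was -0.044 (edgeR adjusted p 0.969). Fosb held 1.66 to 2.38 CPM in the 4 libraries with few muscle transcripts and 1.33 to 5.60 CPM in the 7 others.

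Jun encodes c-JUN, the partner of the FOS proteins and the substrate after which JNK is named. It lies at chr4:95049034-95052222 on the minus strand, with the antisense gene Junos opposite. Levels were 24.9, 22.4, 38.1 and 19.8 CPM in Control 1 to 4 and 25.3 to 39.5 CPM in BMAd-DTA libraries, with a median of 32.5. Control 3 stood among the highest BMAd-DTA libraries, while the other Control libraries were below all of them. The means were 26.3 ± 8.12 CPM (SD, n = 4) and 31.8 ± 5.33 CPM (SD, n = 7). The log2 fold change of Jun was 0.28 (SE 0.17), with an edgeR adjusted p of 0.456. Without Control 3 it was 0.51, with an unadjusted p of 0.0039 in the edgeR test and an adjusted p of 0.0768.

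Of the zinc finger factors, Egr2, also known as Krox20, differed most. Its level in Control 1 to 4 was 3.42, 1.65, 3.78 and 3.99 CPM, from 28 counts in the lowest library. BMAd-DTA libraries held 3.71 to 7.17 CPM with a median of 5.24. Of these, 6 of 7 lay above every Control library, and BMAd-DTA 1 lay between Control 1 and Control 3. Mean Egr2 was 3.21 ± 1.07 CPM (SD, n = 4) in Control and 5.24 ± 1.13 CPM (SD, n = 7) in BMAd-DTA mice, a log2 fold change of 0.70 (SE 0.24, 95% interval 0.15 to 1.26). The unadjusted p was 0.0125 in edgeR, the adjusted p was 0.167, and the two-sided exact permutation p was 0.00909, where 330 placements of the mice allow no p below 0.00303. DESeq2 gave Egr2 an unadjusted p of 0.00324 and an adjusted p of 0.0552, and limma-voom an adjusted p of 0.170. Leaving out each mouse in turn gave log2 fold changes of 0.49 to 0.83, the lowest without Control 2, with unadjusted p-values of 0.00759 to 0.0346 and adjusted ones of 0.132 to 0.388.

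Osteoblast and osteocyte markers moved in the same direction as Egr2. All 11 of them were higher in BMAd-DTA mice by fitted fold change and 1, Alpl, passed the adjusted edgeR threshold, beside 0.0788% of all genes tested. Their summed level was 3046 to 13080 CPM in Control and 15510 to 36260 CPM in BMAd-DTA libraries. Most of that sum came from Col1a1 and Col1a2, with means of 4720.5 and 3869.5 CPM in Control and 12016 and 9254.7 CPM in BMAd-DTA mice. Not every marker separated the groups: Runx2 held 82.7 to 100.8 CPM in Control and 88.3 to 138.5 CPM in BMAd-DTA libraries. Over all genes tested, the groups did not overlap in 2.81%. Other marker lists also differed in 1 direction by fitted fold change: all 8 B lymphocyte markers were higher (median log2 fold change 0.53, 1 at an unadjusted p under 0.05), all 8 tendon and fibroblast markers higher (median 0.34, 3 at that p) and all 9 tested erythroid markers lower (median -0.56, 8 at that p), with 0 called in each. The summed levels in Control and BMAd-DTA libraries were 445 to 1011 and 774 to 1792 CPM for B lymphocytes, 415.5 to 625.3 and 455.4 to 722.3 CPM for tendon and fibroblasts, and 4024 to 8152 and 4081 to 6390 CPM for erythroid cells. The part of these cell types in the Egr2 difference was not tested. Over all genes tested, 16.4% were at an unadjusted edgeR p under 0.05 in either direction. In the 7 libraries with abundant muscle transcripts, a selection made after seeing the data, the log2 fold change of Egr2 was 0.76 (edgeR adjusted p 0.351), and with the muscle score as a covariate it was 0.66 (adjusted p 0.253). Egr2 lies at chr10:67535475-67542188 on the plus strand, and the printed stretch with the CArG box precedes 1 of its annotated starts.

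Egr1, whose protein binds the GCGNGGGCG site, is a standard marker of ERK signalling and lies at chr18:34859823-34864984 on the plus strand. Control 1 to 4 held 47.7, 22.4, 42.0 and 27.7 CPM of Egr1. BMAd-DTA libraries ranged from 35.1 to 55.9 CPM with a median of 41.5. Control 1 and 3 lay inside the BMAd-DTA range and Control 2 and 4 below all of it. The means of 35.0 ± 11.9 CPM (SD, n = 4) and 43.7 ± 7.10 CPM (SD, n = 7) gave a log2 fold change of 0.32 (SE 0.19) and an edgeR adjusted p of 0.426. It was 0.16 without Control 2 and 0.51 without Control 1, where the unadjusted edgeR p was 0.0172.

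Atf3 encodes a stress-induced member of the CREB and ATF family that mostly represses its targets. It lies at chr1:191170296-191218039 on the minus strand and held 7.72, 4.004, 4.90 and 4.67 CPM in Control 1 to 4. BMAd-DTA libraries ranged from 4.53 to 7.98 CPM with a median of 5.18. Well above that median lay 1 Control library, Control 1, and BMAd-DTA 4, 5 and 6, at 6.67, 7.98 and 7.63 CPM. Of these, BMAd-DTA 5 was the 1 above all Control libraries. The log2 fold change of Atf3 was 0.15 (SE 0.22), with an edgeR adjusted p of 0.789.

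Dusp1, the nuclear phosphatase that inactivates p38, JNK and ERK, was the other member with a lower mean in BMAd-DTA mice. Control 1 to 4 held 62.9, 57.5, 41.5 and 36.5 CPM of Dusp1, and BMAd-DTA libraries 37.1 to 50.1 CPM with a median of 43.5. The BMAd-DTA range lay wholly inside the Control range. The means were 49.6 ± 12.6 CPM (SD, n = 4) and 43.0 ± 4.69 CPM (SD, n = 7), with a log2 fold change of -0.21 (SE 0.14) and an edgeR adjusted p of 0.495. Without Control 1 it was -0.070, and without Control 4 it was -0.33 with an unadjusted edgeR p of 0.0228. Dusp1 was at 36.5 to 41.6 CPM in the 4 libraries with few muscle transcripts and 41.5 to 62.9 CPM in the 7 others. This split was picked after the values of all members were seen and was not tested. With the muscle score as a covariate the log2 fold change of Dusp1 was -0.12 (edgeR adjusted p 0.706). Its annotated span, chr17:26505590-26562128 on the minus strand, overlaps the genes AC122252.4 and AC122252.1 on the same strand, whose shared reads the counting leaves unassigned.

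Ier2, a small nuclear protein gene at chr8:84661331-84662852 on the minus strand, was the steadiest member. Its level was 47.9, 50.0, 49.8 and 55.4 CPM in Control 1 to 4 and 49.5 to 60.5 CPM in BMAd-DTA libraries, with a median of 53.8. The highest library of all was 1.26 times the lowest. The means of 50.8 ± 3.22 CPM (SD, n = 4) and 53.8 ± 3.52 CPM (SD, n = 7) gave a log2 fold change of 0.083 (SE 0.067, 95% interval -0.068 to 0.23), with an edgeR adjusted p of 0.588.

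Zfp36 encodes tristetraprolin, which binds AU-rich elements in the 3′ end of cytokine and immediate early mRNAs and speeds their decay. It lies at chr7:28376784-28380253 on the minus strand and was the most abundant member. Control 1 to 4 held 115, 129, 144 and 114 CPM of Zfp36. BMAd-DTA libraries ranged from 124 to 174 CPM with a median of 142, and 3 of 7 were above every Control library. The means were 126 ± 14.1 CPM (SD, n = 4) and 145 ± 17.4 CPM (SD, n = 7). The log2 fold change of Zfp36 was 0.21 (SE 0.097, 95% interval -0.013 to 0.43), with an edgeR adjusted p of 0.311 and an exact permutation p of 0.0818. In 4 of the 11 fits that left out 1 mouse, the unadjusted p was under 0.05, and the smallest was 0.0160.

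**Figure D2:**
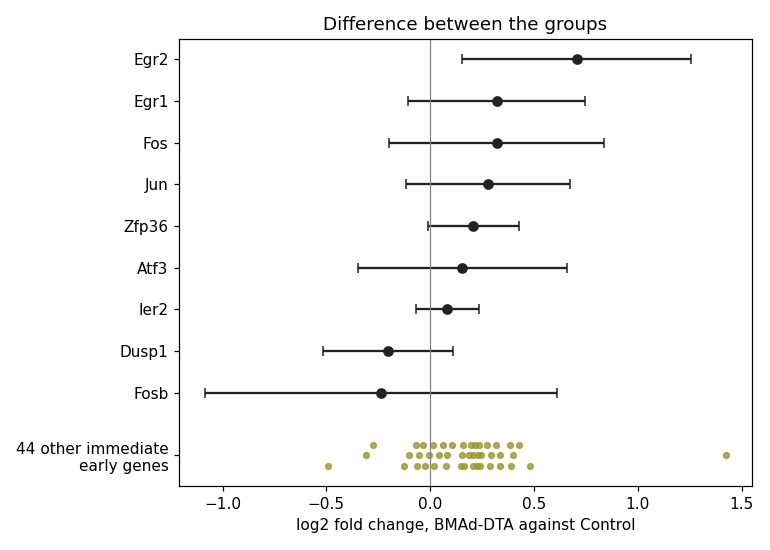
Log2 fold change of BMAd-DTA against Control (horizontal axis) for the 9 members, as points with 95% intervals, above the values of the 44 other immediate early genes tested, which are spread vertically for legibility. The intervals were built from the edgeR log2 fold change and SE with a t quantile at 9 degrees of freedom. The interval of Egr2 lies above 0, at 0.15 to 1.26, and those of the other members include it.

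Levels of different genes were compared per kilobase (kb) of exon, as means over all libraries. Zfp36 had 39.7 CPM and Ier2 34.6, at the 92.7th and 91.4th percentile of the genes tested. Dusp1 followed at 13.7, Jun at 9.35 and Egr1 at 9.04 CPM per kb. Fos had 4.76 CPM per kb, at the middle of all genes tested, Atf3 2.65, Egr2 1.33 and Fosb 0.436. The levels per kb of Jun and Egr1 differed by less than their spread between libraries.

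The members differed in how far mice of the same group lay apart. The SD of log2 CPM about the group means, with 9 degrees of freedom, was largest for Fosb at 0.62, followed by Egr2 at 0.41, Fos at 0.39, Atf3 at 0.36, Egr1 at 0.35 and Jun at 0.31. Dusp1 had 0.25 and Zfp36 0.17. For Ier2 it was 0.091, lower than for all but 7.91% of the genes tested. The median over all genes was 0.206, and 7 of the 9 members were above it. Spread falls with abundance in count data, so the members with few counts carry more counting error. Counting alone would give Fosb an SD of about 0.209, Egr2 0.161 and Fos 0.103, but Egr1 0.0539, Jun 0.0629 and Ier2 0.0472. The observed spread was above the counting error in every member.

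**Figure D3:**
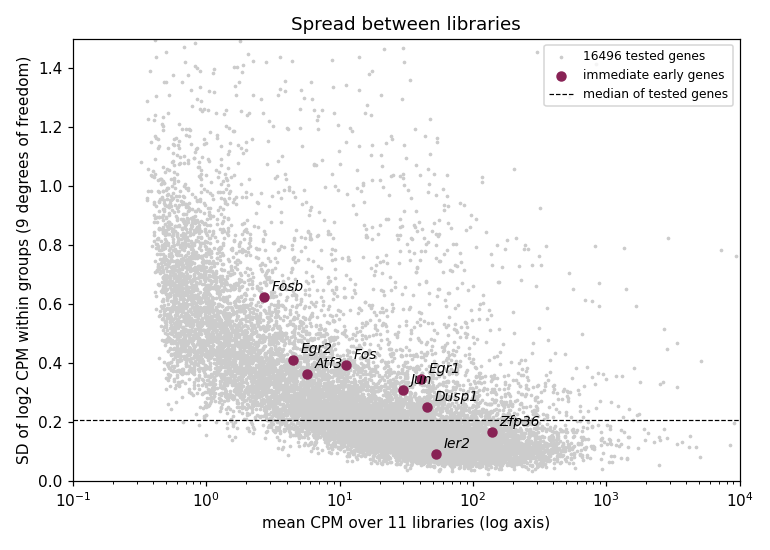
SD of log2 CPM within groups (vertical axis) against mean CPM over the 11 libraries (horizontal log axis) for the 16496 genes tested in grey, with the members in purple and the median of all genes, 0.206, as a dashed line. Fosb is highest among the members and Ier2 and Zfp36 lie below the line. The axes leave out 132 genes.

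No single library was high or low for every member. BMAd-DTA 1 had the highest Fos, Fosb and Egr1, and was above the mean of all libraries for 7 of 9 members, yet it had the lowest Egr2 of its group. BMAd-DTA 5 was highest for 3 others, Jun, Egr2 and Atf3. Control 2 was the lowest library for 4 members, and Control 4 for 3. The mean deviation over the members ran from -0.34 in Control 2 to 0.30 in BMAd-DTA 1 on the log2 scale. Control 4 is 1 of the 4 libraries with few muscle transcripts, and the BMAd-DTA libraries of that kind had mean deviations of 0.062, -0.028 and 0.14.

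**Figure D4:**
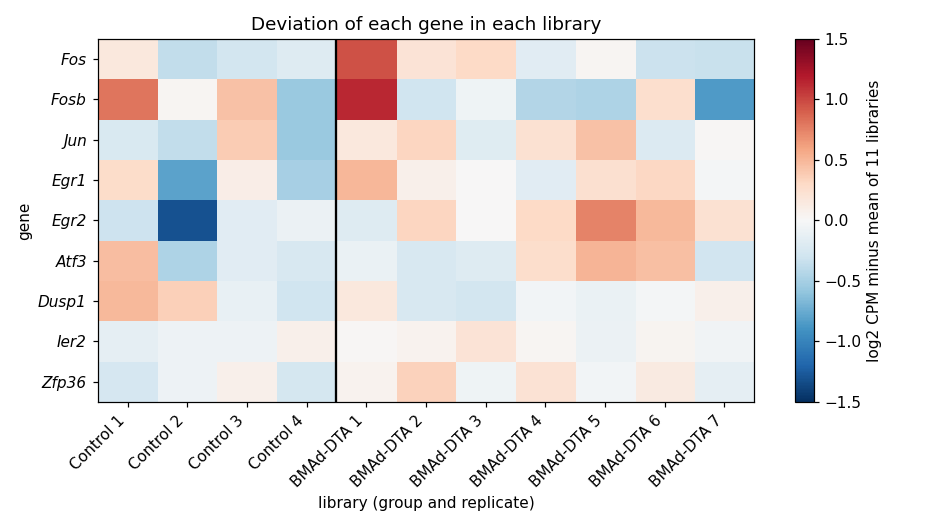
Log2 CPM of each member (rows) in each library (columns) minus its mean over the 11 libraries, in colour from blue (lower) to red (higher), with a line between Control and BMAd-DTA. BMAd-DTA 1 is red for Fos and Fosb, Control 2 is darkest blue for Egr2, and the row of Ier2 is pale throughout.

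The members varied together only weakly between mice. Over 36 pairs and 11 libraries, Pearson's r of log2 CPM was positive in 27 pairs and negative in 9, with a median of 0.174. The highest was Jun with Zfp36, with r = 0.631 (permutation p = 0.0392) and Spearman's rho = 0.655 (permutation p = 0.0338), and r = 0.641 without Control 4 and BMAd-DTA 5. For that pair r was 0.509 on deviations from the group means and 0.300 within the 7 BMAd-DTA mice (exact permutation p = 0.505). The lowest was Dusp1 with Ier2, with r = -0.687 (permutation p = 0.0182) and rho = -0.655. After Benjamini-Hochberg adjustment over the 36 pairs, 0 passed for either measure, and the smallest adjusted p was 0.323 for r and 0.406 for rho.

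The 2 libraries left out for a pair were those farthest from the median of its first gene. That choice narrows the range of the gene and can by itself lower r. Fos and Fosb had r = 0.567 over all libraries, and 0.161 without BMAd-DTA 1 and 3. Egr1 and Egr2 had r = 0.588, and -0.191 without Control 2 and 4. Other pairs changed less or rose. Without BMAd-DTA 1 and 3, r went from 0.574 to 0.460 for Fos with Egr1 and from 0.234 to 0.335 for Fos with Jun. On deviations from the group means, the median r over the pairs was 0.113 and 20 of 36 were positive. Within the 7 BMAd-DTA mice, Fosb and Egr1 had r = 0.803 (exact permutation p = 0.0266, adjusted p = 0.802).

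**Figure D5:**
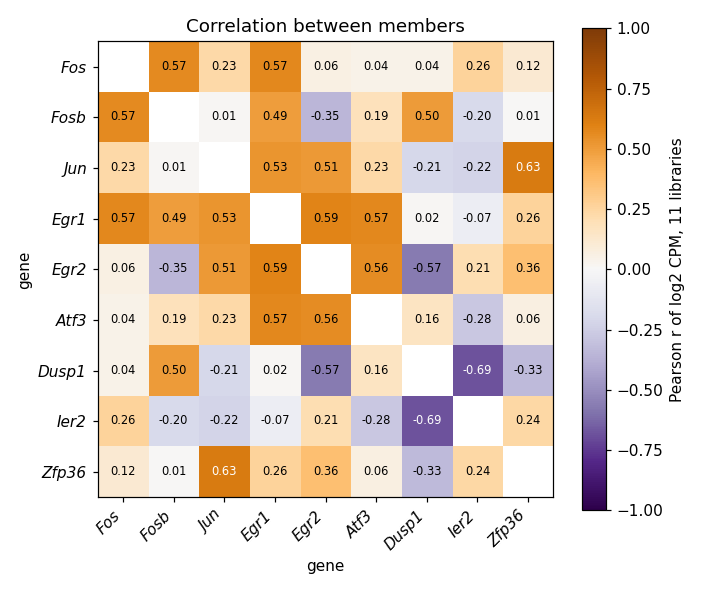
Pearson r of log2 CPM over the 11 libraries for each pair of members, printed in the cells and coloured from purple (negative) to orange (positive). Values run from -0.69 for Dusp1 with Ier2 to 0.63 for Jun with Zfp36, and after adjustment over 36 pairs 0 passed the threshold.

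Outside the members, the genes whose deviations from the group means followed the members' mean deviation most closely, of 10361 genes with at least 10 CPM, were Ctnnal1 (r = 0.900, rho = 0.918), Dnajb6 (r = 0.883), Sox13 (r = 0.864), Erf (r = 0.857) and Opa3 (r = 0.841), over 11 libraries. These are the top of a ranking and carry no test.

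Upstream of the members, the 26 tested genes of 28 listed for ERK, p38 and JNK signalling to SRF and CREB were read first. EdgeR called 0 of them. At an unadjusted p under 0.05 there was 1 higher, the kinase Araf, and 1 lower, the CREB family member Atf1. Of all genes tested, 16.4% were past that threshold in either direction. The median log2 fold change was -0.034, beside 0.0018 for all genes. The values ran from -0.21 for Atf1 (71.4 ± 7.88 CPM in Control and 61.6 ± 3.87 CPM in BMAd-DTA mice) to 0.38 for Map2k6, a p38 kinase kinase. The transcript of Srf itself was at 98.9 ± 1.93 CPM in Control and 101 ± 10.3 CPM in BMAd-DTA mice. These are levels of mRNA and not of phosphorylation.

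Beside the members, 44 of 46 other immediate early genes were tested, and edgeR called 0 of them. At an unadjusted p under 0.05, 6 were higher and 3 lower, where 16.4% of all genes were past that threshold in either direction. By fitted fold change 33 were higher and 11 lower, with a median of 0.17 on the log2 scale. The largest was Fosl1, which encodes the AP-1 subunit FRA1. It was scarce, at 0.320 ± 0.125 CPM (SD, n = 4) in Control and 0.873 ± 0.226 CPM (SD, n = 7) in BMAd-DTA mice, with a log2 fold change of 1.42 (SE 0.35) and an edgeR adjusted p of 0.081. Fosl1 reached the filter's level of 0.568 CPM in 0 of 4 Control and 7 of 7 BMAd-DTA libraries, so it was tested only through the group where it was high, and its difference is no support for the list. The paralogue of Egr2, Egr3, chosen after its values were seen, had 22.4 ± 3.64 CPM and 29.2 ± 4.40 CPM in the same groups, with a log2 fold change of 0.39 and an adjusted p of 0.154.

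The smallest was Ppp1r15a, which encodes the phosphatase subunit GADD34, at 282 ± 84.4 CPM in Control and 201 ± 37.6 CPM in BMAd-DTA mice, a log2 fold change of -0.49 (edgeR adjusted p 0.202). It was the 1 gene of this list called without Control 4 (log2 fold change -0.69, adjusted p 0.0487) and in the 7 libraries with abundant muscle transcripts (-0.76, adjusted p 0.0206). The other genes lower at an unadjusted p under 0.05 were Mafk, a small MAF factor, and Nfkbiz, an atypical IκB protein, both named after their values were seen.

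Downstream of Zfp36, 10 of 13 listed mRNAs with AU-rich elements were tested and 0 were called by edgeR. The chemokines Cxcl1, Cxcl2 and Ccl2 were higher and the kinase gene Pim1 lower at an unadjusted p under 0.05. Over all genes tested, 16.4% were past that threshold in either direction. Cxcl2, with the largest log2 fold change at 1.82 (edgeR adjusted p 0.107), had 0.297 ± 0.160 CPM in Control and 1.06 ± 0.546 CPM in BMAd-DTA mice. Cxcl1 and Cxcl2 each passed the filter in 0 of 4 Control and 6 of 7 BMAd-DTA libraries, so they too were tested only through the group where they were high. Ccl2, named after its values were seen, had 1.79 ± 0.439 CPM and 4.86 ± 1.56 CPM (adjusted p 0.0675). Il1b had the smallest log2 fold change at -0.33 (adjusted p 0.657), and the list's median was 0.13.

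Of 10 bone genes with known AP-1 sites, 0 were called by edgeR and 7 were higher at an unadjusted p under 0.05. Among all genes tested, 16.4% were past that threshold in either direction. The log2 fold changes of the 10 ran from 0.35 for Tnfsf11, the gene of RANKL, which did not pass (unadjusted edgeR p 0.190), to 1.35 for Col1a1, with a median of 1.03. Bglap, Ibsp and Col1a1 are also among the osteoblast and osteocyte markers, which were higher throughout, and the part of those cells or of AP-1 in the values was not tested.

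Other stress responses were read from 2 lists, beside 16.4% of all genes tested at an unadjusted edgeR p under 0.05 in either direction. Of 12 genes of the glucocorticoid response, 0 were called and 1, the cell cycle inhibitor Cdkn1a, was higher at an unadjusted p under 0.05, with a log2 fold change of 0.47 and an edgeR adjusted p of 0.0675. The smallest of that list was Zbtb16 at -0.055, and the median was 0.14. Of 10 heat shock genes, 0 were called and 2 were lower at an unadjusted p under 0.05, the chaperones Dnajb1 (-0.29) and Hsp90aa1 (-0.32), while Hspa1b had the largest value at 0.20 (edgeR adjusted p 0.746). Hspa1a and Hspa1b are near-identical copies, so their counts are less certain.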

How the data were processed

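Strand-specific mRNA libraries came from whole distal tibial bones (4 Control mice and 7 BMAd-DTA mice). The authors checked reads with FastQC 0.11.9, aligned them to mm10 with STAR and deposited raw counts per gene, without normalization, per library and as a merged table of 22600 genes. They also used DESeq2. The merged table was analysed, with read-strand counts of each library as an alternative. Unmapped, multimapping, unassigned and ambiguous pairs (9.1% to 15.14%, 6.68% to 9.07%, 6.58% to 8.44% and 1.49% to 1.7% of each library) stayed out of library sizes.

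Counts were tested across all genes with edgeR 4.0.16 under R 4.3.3 (genes kept by filterByExpr, TMM factors, glmQLFit and two-sided glmQLFTest, Benjamini-Hochberg adjustment over 16496 genes). The standard error is the log2 fold change over the square root of F. Log2 CPM used a prior count of 2. The steps were tested on simulated counts. Single genes also had an exact permutation test of log2 CPM, and correlations 100000 random pairings in Python 3.11.15 with NumPy 2.4.6. Alternatives were DESeq2 1.42.0, limma-voom (limma 3.58.1), other scalings, filters and count tables, a muscle covariate, and each mouse left out. Positions came from GENCODE M21 (99.89% of identifiers matched).

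Members and lists were chosen with earlier results of these data known. The text names all members, the largest, smallest and called genes of each list, and the 5 genes nearest in pattern. Outside that rule, Araf, Cxcl1, Pim1 and Dnajb1 were named for an unadjusted edgeR p under 0.05, after their values were seen. So were the genes marked in the text as chosen or named in that way. Srf, Hspa1a, Bglap, Ibsp and Col1a2 are also named outside the rule. Replicate numbers follow the order of the samples and only name mice. The study describes its controls as littermates, but the labels do not place the mice in litters.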

Additional observations from a re-analysis of the deposited data

Results flagged for a closer look

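Of 18 sets of values, 9 members in each of the groups, 2 had a library whose gap to the nearest other exceeded Dixon's critical value at the 95% level, and chance marks about 1 in 20. Both were BMAd-DTA 1. Its Fos was 21.0 CPM where the next library held 13.3, a gap of 0.614 of the group's range. Its Fosb was 5.60 CPM where the next held 2.99, a gap of 0.610 of the range.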

How the results depend on the processing

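In every alternative that was run, 0 of the 9 members were called. The number of members at an unadjusted p under 0.05 was 1 to 3 when mice were left out in turn (3 without Control 3) and 1 in all other alternatives. The members' median log2 fold change stayed positive, at 0.157 to 0.282 with a mouse left out and 0.112 in the 7 libraries with abundant muscle transcripts. The sign of 1 member, Fosb, turned in 1 setting, at 0.0099 without Control 1, and the cause was not tested. Its lowest value with a mouse left out was -0.552, without BMAd-DTA 1. Among the 44 other immediate early genes 0 to 1 were called with a mouse left out, and 1 in the libraries with abundant muscle transcripts. Over all genes, where 13 were called, 845 were called by DESeq2, 20 by limma-voom, 20 with DESeq2 size factors, 3 with the muscle score as a covariate and 103 in the muscle-rich libraries, a setting chosen after seeing the data. Leaving out mice gave 0 (without Control 1, Control 2, BMAd-DTA 1 or BMAd-DTA 6) to 292 (without Control 3). The causes were not tested. No paired analysis was possible because the groups are different mice and the labels do not place them in litters. With 4 and 7 mice, the narrowest 95% interval of a member's log2 fold change was -0.068 to 0.23 (Ier2) and the widest -1.08 to 0.61 (Fosb). True differences of any size inside an interval are compatible with these data.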
